A study of Mus musculus with 96 samples.

Results

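The 7 genes Hmgcs1, Idi1, Fdft1, Sqle, Lss, Cyp51 and Insig1 were taken by name as a group of cholesterol genes that the transcription factor SREBP-2 is known to drive. They are 7 of the 55376 genes in the count table, and all 7 were among the 15629 genes with enough counts to be tested. Of the 7, 6 encode enzymes of cholesterol synthesis and the other, Insig1, a regulator of the pathway. None is an uptake gene, so genes of uptake were taken from a separate list.

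Cholesterol is built from acetyl-CoA through mevalonate, isoprenoid units, squalene and lanosterol. SREBP-2 (gene Srebf2) is made as an endoplasmic reticulum protein bound to SCAP; when sterols are low, SCAP carries it to the Golgi, where proteases release the part that enters the nucleus and switches on genes of cholesterol synthesis and uptake. INSIG proteins hold SCAP back when sterols are high, and because Insig1 is itself an SREBP target, its transcript is commonly read as a marker of the pathway's activity.

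RNA from mouse heart ventricles was sequenced in 96 libraries to ask what the clock gene Bmal1 (gene symbol Arntl) contributes to sex differences in the heart's daily gene expression. All animals carried the genotype labelled iCSBmal1 KO, an inducible knockout of Bmal1 in cardiomyocytes, in the vehicle groups too. Each sex was given vehicle or tamoxifen, which makes 4 groups of 24 libraries, with 2 libraries at each of 12 times from ct 18 to ct 62. Times labelled ct were taken to be circadian hours, which the labels do not spell out, and the F and M of the titles to be female and male. Tamoxifen is the drug that switches on the recombinase; with no tamoxifen group lacking the knockout allele among these samples, the drug and the knockout cannot be told apart. What promoter drives the recombinase, and how old the animals were, is not stated in the labels used here. The labels do not say that libraries came from separate animals, so every p-value reflects library-to-library spread alone, which may be technical.

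Depth was 8944955 to 20596194 counts per library. Arntl peaked at ct 23.78 with an amplitude of 2.38 ± 0.16 in vehicle females, against 0.87 ± 0.14 in tamoxifen females, and its amplitude was 2.05 ± 0.16 in vehicle males and 0.87 ± 0.15 in tamoxifen males (amplitude is how far, in log2 units, the fitted peak lies above the fitted daily mean, ± SE). Its fitted mean log2 level was higher with tamoxifen by 0.44 in females and 0.36 in males, while the arithmetic mean was lower, at 17.5 against 20.4 CPM in females and 15.1 against 16.3 CPM in males; the table counts the whole gene and the deleted stretch is not given, so the mean does not check the deletion. The cardiomyocyte markers Myh6, Tnnt2, Tnni3, Actc1, Ryr2, Myl2 and Pln were detected in all groups. Of the vehicle male libraries, 10 held a larger share of counts in the annotation's TEC class (loci not yet proven to be genes) than any library of the other groups, up to 0.1898% against at most 0.1116%. They include 6 of the 8 vehicle male libraries from ct 26 to 38 and 4 of the 16 at other times, so results for vehicle males are also given without them. Leaving them out keeps 14 vehicle male libraries, with 1 at each of 6 times and none at some others. Coverage of the day and precision therefore change as well in the results without the 10. In 1 library labelled as tamoxifen female at ct 54, sex-linked genes go against the label, with Xist at 0.272 CPM (CPM, counts scaled to the library's total in the usual way) and the Y-linked Ddx3y at 11.3 CPM. In addition, 13 libraries held over 20 CPM of Myl7, an atrial myosin light chain. Title numbers fall in separate ranges for vehicle males, vehicle females and the tamoxifen libraries, whose sexes share a range. Whatever the numbers stand for cannot be told apart from treatment, from sex in vehicle hearts or from the difference in tamoxifen effect between the sexes. In tamoxifen males the Arntl amplitude of 0.87 became 1.44 with the lower tamoxifen title numbers alone and 0.58 with the higher alone. The Arntl rhythm change from vehicle males, by the edgeR test used below, was 0.70 (adjusted p = 0.244) and 1.48 (adjusted p = 0.00155). In tamoxifen females amplitudes were 0.93 and 0.78, and changes 1.48 and 1.68 (adjusted p = 0.00422 and 0.000753). Why the male values differed was not tested, and each setting keeps fewer libraries.

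Hmgcs1 lies at chr13:119690379-119708260 (plus strand), Idi1 at chr13:8885501-8892451 (plus), Fdft1 at chr14:63145150-63179578 (minus), Sqle at chr15:59315077-59331192 (plus), Lss at chr10:76531588-76557138 (plus), Cyp51 at chr5:4081145-4104746 (minus) and Insig1 at chr5:28071363-28078662 (plus), all on GRCm38 and all protein-coding. Promoter sequence from RefSeq (GRCm38.p6) was at hand for 5 of the 7. It was searched on both strands, from 250 bases before to 50 after the start, for TCACNCCAC (a sterol regulatory element), CACGTG (the E-box, bound by the clock's activators and also by SREBPs) and CCAAT (bound by NF-Y, a partner of SREBPs). Hmgcs1 was the only one of the 5 with TCACNCCAC, at position -137, which 1.24% of the 32851 promoters of the same length hold. Insig1 was the only one with CACGTG, at position -101, against 7.15% of promoters. Both positions count from the RefSeq start of the promoter, which differs from the gene starts given above. CCAAT stood in all 5, against 37.41% of promoters. The stretches of Hmgcs1 (chr13:119690101-119690350) and Insig1 (chr5:28071162-28071362) that lie before the annotated gene starts are printed because they hold the rarer motifs; both are on the plus strand, and capitals mark the motif matches, with ATTGG as CCAAT on the opposite strand. A match is a stretch of letters and was not tested for binding.
Hmgcs1: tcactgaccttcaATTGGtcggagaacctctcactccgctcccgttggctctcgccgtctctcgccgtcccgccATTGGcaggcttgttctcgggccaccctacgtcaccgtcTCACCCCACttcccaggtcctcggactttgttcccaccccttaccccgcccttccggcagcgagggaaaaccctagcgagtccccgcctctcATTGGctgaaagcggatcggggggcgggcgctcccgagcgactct
Insig1: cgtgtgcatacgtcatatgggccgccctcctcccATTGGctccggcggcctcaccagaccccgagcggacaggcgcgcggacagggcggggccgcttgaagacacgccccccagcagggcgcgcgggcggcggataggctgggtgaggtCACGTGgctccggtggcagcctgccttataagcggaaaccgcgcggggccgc

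Levels differed widely along the pathway. Per kilobase of merged exon, mean levels over all 96 libraries were 12.9 CPM per kb for Hmgcs1, 11.9 for Fdft1, 8.33 for Insig1, 5.06 for Cyp51, 1.22 for Idi1, 0.561 for Lss and 0.226 for Sqle. Counts per library were 342 to 1906 for Hmgcs1 but 9 to 138 for Idi1, 40 to 178 for Lss and 3 to 98 for Sqle, so the last 3 were measured with the least precision.

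In vehicle hearts 6 of 7 genes had a called 24 h rhythm in females (all but Insig1) and 6 of 7 in males (all but Fdft1), where a call is an adjusted p under 0.05 in edgeR's quasi-likelihood test with Benjamini-Hochberg adjustment over all tested genes. The same test called 34.5% of all tested genes in vehicle females and 55.2% in vehicle males. In tamoxifen hearts Hmgcs1, Sqle and Insig1 were called in both sexes and Idi1 in females, so 4 of 7 in females, where 17.1% of all genes were called, and 3 of 7 in males, where 8.03% were. Of the 19 called rhythms, the 18 outside Fdft1 had fitted peaks between ct 23.44 and ct 6.065 of the 24 h cycle. The remaining one, Fdft1 in vehicle females, peaked at ct 10.96.

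**Figure D1:**
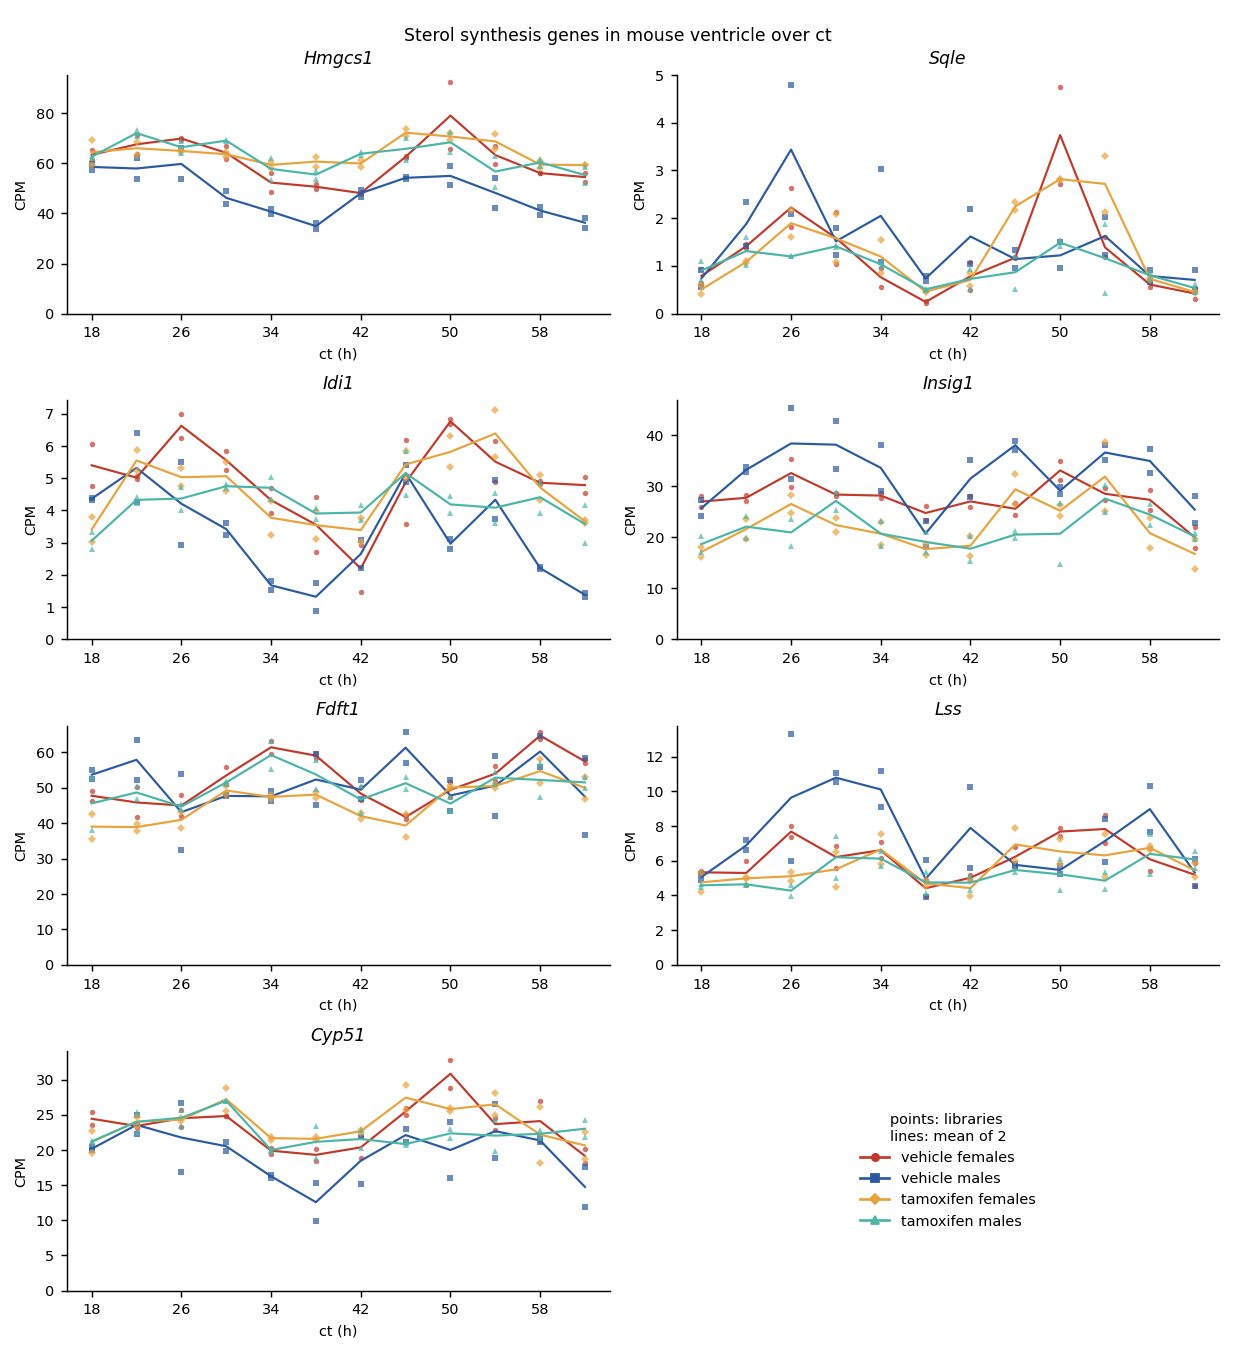
Raw CPM (vertical axis) of the 7 genes against ct in hours (horizontal axis); points are single libraries, lines join the means of the 2 libraries at each time, and colours mark the 4 groups. Sqle rises and falls most, from 0.225 to 4.76 CPM in vehicle females, while Hmgcs1 in tamoxifen libraries stays between 50.4 and 73.7 CPM.

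Hmgcs1, the cytosolic synthase that makes HMG-CoA, had its lowest, median and highest CPM at 47.7, 61.5 and 92.5 in vehicle females and 33.8, 49.1 and 66.0 in vehicle males. The values were 58.1, 63.1 and 73.7 in tamoxifen females and 50.4, 62.98 and 73.4 in tamoxifen males. Vehicle males reached lower than every other group and both tamoxifen groups spanned narrower ranges, but all ranges overlapped. The amplitude was 0.21 ± 0.04 in vehicle females (peak ct 1.61, adjusted p = 0.000172) and 0.37 ± 0.04 in vehicle males (peak ct 23.44, adjusted p = 1.02e-09). In tamoxifen hearts it was 0.14 ± 0.04 in females (adjusted p = 0.0362) and 0.16 ± 0.04 in males (adjusted p = 0.0233). The tamoxifen calls are near the threshold: with limma-voom, leaving out any of 10 single tamoxifen female libraries ended the first (amplitude 0.131 to 0.138, adjusted p up to 0.0689), and leaving out 1 tamoxifen male library at ct 34 or 1 at ct 62 ended the second (0.142 and 0.145, adjusted p = 0.0753 and 0.0557).

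Idi1, the isomerase that supplies dimethylallyl units, ranged from 1.46 over a median of 4.94 to 7.01 CPM in vehicle females and from 0.888 over 3.11 to 6.39 CPM in vehicle males. In tamoxifen hearts it ran from 3.01 over 4.69 to 7.11 CPM in females and from 2.80 over 4.20 to 5.84 CPM in males. The lowest libraries were vehicle males, and ranges overlapped between all groups. The lowest of all was among the 10 rich in TEC counts, and the other 14 vehicle male libraries reached down to 1.44 CPM. Its rhythm was widest in vehicle males, where the amplitude of 0.81 ± 0.11 is a peak-to-trough fold of 3.07 (peak ct 23.95, adjusted p = 6.68e-08). Amplitudes were 0.32 ± 0.10 in vehicle females (adjusted p = 0.0177) and 0.39 ± 0.10 in tamoxifen females (adjusted p = 0.00637). In tamoxifen males the fitted amplitude was 0.14 ± 0.10 and was not called (adjusted p = 0.709).

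Fdft1, squalene synthase, which joins isoprenoid units into squalene, had lowest, median and highest CPM of 41.1, 51.3 and 65.8 in vehicle females and 32.4, 52.2 and 65.6 in vehicle males. In tamoxifen females they were 35.6, 47.1 and 58.2, and in tamoxifen males 38.1, 50.5 and 63.2. The medians lay close together and ranges overlapped throughout. Its only called rhythm was in vehicle females, with an amplitude of 0.28 ± 0.05 (adjusted p = 0.000186) and the highest mean at ct 58. Fdft1 exons share 774 bp with Ctsb on the opposite strand, and whether counting used strand is not given in the sources used here, so its values may hold reads of Ctsb, which had no called rhythm in any group.

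Sqle, squalene epoxidase, an early rate-limiting step of the sterol branch, had lowest, median and highest CPM of 0.225, 1.06 and 4.76 in vehicle females and 0.502, 1.15 and 4.78 in vehicle males. In tamoxifen females they were 0.401, 1.07 and 3.31, and in tamoxifen males 0.436, 1.003 and 1.89. The medians were alike while the highest libraries were not, and the ranges overlapped. Sqle was rhythmic in all 4 groups, with peaks at ct 2.04 and 2.78 in vehicle and tamoxifen females and at ct 2.27 and 2.64 in vehicle and tamoxifen males. The fitted peak-to-trough fold was 6.21 in vehicle females (adjusted p = 1.29e-10) and 5.46 in tamoxifen females (adjusted p = 6.09e-09). It was 2.41 in vehicle males (adjusted p = 0.000943) and 2.24 in tamoxifen males (adjusted p = 0.0259). The female rhythms kept their call in all 14 alternative analyses; the tamoxifen male call was lost in 17 of the 96 limma-voom fits that each left out 1 library (amplitude 0.50 to 0.64 over the 96, adjusted p up to 0.102).

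Lss, lanosterol synthase, had lowest, median and highest CPM of 3.95, 5.93 and 8.64 in vehicle females and 3.98, 5.34 and 7.87 in tamoxifen females. In males they were 3.89, 6.07 and 13.3 with vehicle and 3.97, 5.20 and 7.53 with tamoxifen. Every library above 8.64 CPM was one of the 10 TEC-rich vehicle males, and the ranges overlapped. The other 14 vehicle male libraries reached at most 7.65 CPM. The amplitude was 0.29 ± 0.07 in vehicle females (peak ct 4.31, adjusted p = 0.00391) and 0.30 ± 0.07 in vehicle males (peak ct 6.07, adjusted p = 0.00118). In tamoxifen hearts it was 0.15 ± 0.07 in each sex and not called (adjusted p = 0.307 in females and 0.392 in males).

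Cyp51, the lanosterol demethylase, had lowest, median and highest CPM of 18.1, 23.4 and 32.9 in vehicle females and 18.2, 23.8 and 29.3 in tamoxifen females. In males they were 9.87, 20.2 and 26.7 with vehicle and 18.9, 22.2 and 27.0 with tamoxifen. Vehicle males again held the lowest libraries, and the ranges overlapped. The lowest was among the 10 rich in TEC counts, and the other 14 vehicle male libraries reached down to 15.3 CPM. Amplitudes were 0.18 ± 0.06 in vehicle females (adjusted p = 0.0288) and 0.30 ± 0.06 in vehicle males (adjusted p = 0.000177). Neither tamoxifen group was called, at 0.18 ± 0.06 in females (adjusted p = 0.0639) and 0.07 ± 0.06 in males (adjusted p = 0.750). The vehicle female call was lost with limma-voom without any of 4 vehicle female libraries, 1 at ct 38, both at ct 50 and 1 at ct 62 (amplitude 0.160 to 0.175, adjusted p 0.0538 to 0.0861). Cyp51 exons share 166 bp with Akap9 on the opposite strand, which itself was rhythmic in vehicle males (amplitude 0.28 ± 0.05) and in tamoxifen females (0.20 ± 0.05).

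Insig1, the sterol-sensing retention protein, had lowest, median and highest CPM of 17.8, 27.8 and 35.3 in vehicle females and 18.2, 32.7 and 45.3 in vehicle males. The values were 13.8, 22.01 and 38.7 in tamoxifen females and 14.8, 20.9 and 30.3 in tamoxifen males. Both tamoxifen medians lay below both vehicle medians, with overlapping ranges. The highest tamoxifen female value came from the ct 54 library whose sex-linked genes go against its label. Rhythms were called in vehicle males (0.27 ± 0.06, peak ct 2.75, adjusted p = 0.000608), tamoxifen females (0.36 ± 0.06, peak ct 2.55, adjusted p = 2.48e-05) and tamoxifen males (0.20 ± 0.06, peak ct 5.71, adjusted p = 0.0487), the last of which was lost in 8 of 14 alternatives. In vehicle females the amplitude of 0.16 ± 0.06 was not called (adjusted p = 0.0729), although its fitted peak of ct 2.92 lay beside those of vehicle males and tamoxifen females. Without the mismatched ct 54 library the tamoxifen female amplitude was 0.32 (adjusted p = 0.000106).

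**Figure D2:**
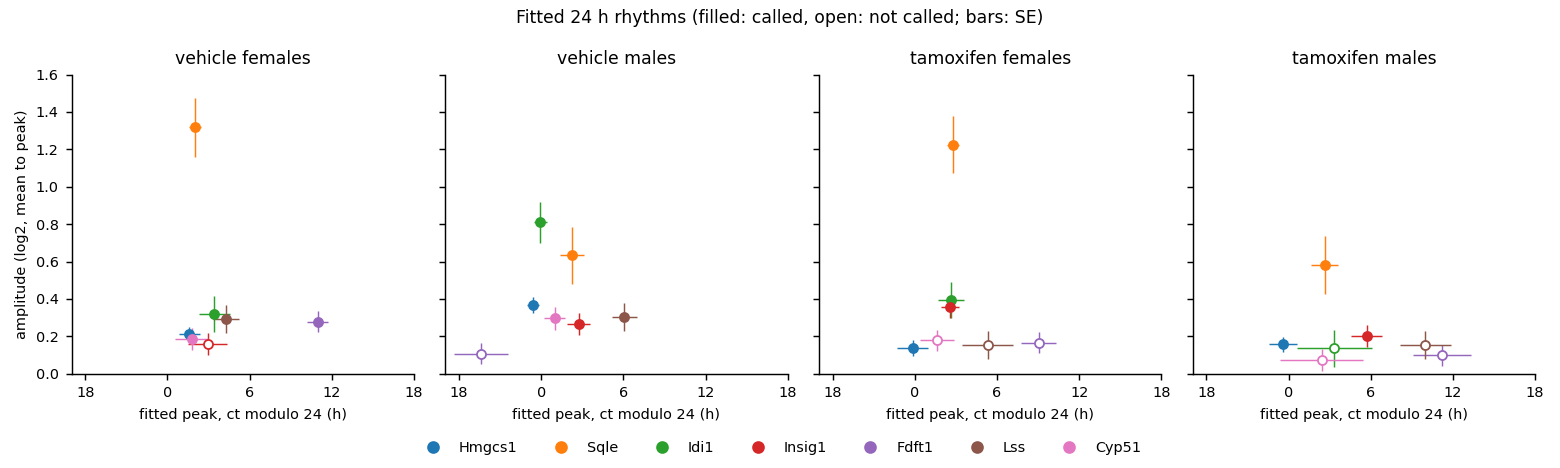
Fitted peak time (horizontal axis, h of the 24 h cycle) against amplitude (vertical axis, log2 mean to peak) of each gene in the 4 groups; bars are SE, and filled symbols mark called rhythms. The 18 called rhythms outside Fdft1 lie between ct 23.44 and ct 6.065.

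When the 10 TEC-rich vehicle male libraries were left out, vehicle male rhythms stayed called for Hmgcs1 (0.29), Idi1 (0.66), Sqle (0.69) and Cyp51 (0.19), while Insig1 (0.19, adjusted p = 0.133) and Lss (0.16, adjusted p = 0.358) were not called. At the 6 times with 1 library of each kind, the library high in TEC counts was the lower one for Idi1, Fdft1 and Cyp51 at 6 of 6 times and for Hmgcs1 at 5, and the higher one for Lss at 6 and for Sqle at 5. The part of this difference in the other results for vehicle males was not tested beyond leaving the 10 libraries out.

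Rhythms of the 7 genes were next compared between groups, as the length of the vector between their fitted cosine and sine terms, a quantity without sign that reflects amplitude and timing together. Tamoxifen changed the rhythm of 0 of 7 genes in females, where edgeR called 0.237% of all tested genes, and 0 of 7 had an unadjusted p under 0.05. DESeq2 also called 0 of the 7. In males 2 of 7 were called against 20.7% of all genes: Idi1 (0.73 ± 0.14, adjusted p = 0.00150) and Hmgcs1 (0.21 ± 0.06, adjusted p = 0.0225). The Idi1 amplitude was 0.81 in vehicle males and 0.14 in tamoxifen males. Without the 10 libraries neither was called (Idi1 0.60, adjusted p = 0.0567; Hmgcs1 0.14, adjusted p = 0.288), and without 1 vehicle male library at ct 62 limma-voom no longer called Hmgcs1 (0.18, adjusted p = 0.0529). A change that misses the threshold does not show that a rhythm was the same.

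The sexes differed in the rhythm of 4 of 7 genes in vehicle hearts, against 37.4% of all genes. These were Sqle (0.69 ± 0.22, adjusted p = 0.0253), wider in females, Idi1 (0.66 ± 0.14, adjusted p = 0.000839) and Hmgcs1 (0.22 ± 0.06, adjusted p = 0.00767), wider in males, and Fdft1 (0.36 ± 0.08, adjusted p = 0.000866), called in females alone. Without the 10 libraries Idi1 (0.56, adjusted p = 0.0329) and Fdft1 (0.23, adjusted p = 0.0280) stayed called, and Hmgcs1 (0.14, adjusted p = 0.266) and Sqle (0.67, adjusted p = 0.0858) were not. Sqle also lost its call with limma-voom without 1 vehicle female library (0.56, adjusted p = 0.0808) or 1 vehicle male library (0.59, adjusted p = 0.0653), both at ct 50. In tamoxifen hearts 0 of 7 were called, against 0.0384% of all genes in edgeR's test and with 0 also by DESeq2; 2 had an unadjusted p under 0.05, Insig1 (0.26 ± 0.08) and Sqle (0.64 ± 0.22).

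Mean levels over the day were then compared between treatments. In females with tamoxifen 3 of 7 genes were called, against 27.5% of all tested genes, and the median log2 change of the 7 was -0.07, beside 0.01 over all tested genes. Insig1 fell by 0.29 on the log2 scale (27.25 ± 3.36 to 22.6 ± 5.24 CPM, SD over 24 libraries each, adjusted p = 7.29e-05), lower at 10 of 12 times. Fdft1 fell by 0.16 (52.1 ± 8.19 to 46.4 ± 5.14 CPM, adjusted p = 0.0240), and Hmgcs1 rose by 0.11 (60.4 ± 9.06 to 65.0 ± 5.44 CPM, adjusted p = 0.0379). The Hmgcs1 call was lost in 8 of 14 alternatives and, with limma-voom, without 1 vehicle female library at ct 42 (0.09, adjusted p = 0.0859). Ctsb, which overlaps Fdft1, rose by 0.13. The other 4 had log2 differences of 0.21 ± 0.15 for Sqle, -0.07 ± 0.10 for Idi1, -0.07 ± 0.07 for Lss and 0.06 ± 0.06 for Cyp51.

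In males 6 of 7 were called, 3 in each direction, against 70.0% of all genes; without the 10 libraries 42.2% of all genes were called. The 7 had a median change of 0.04 beside -0.05 over all tested genes. Idi1 rose by 0.53 ± 0.10 (3.20 ± 1.58 to 4.32 ± 0.697 CPM, adjusted p = 3.46e-06), Hmgcs1 by 0.47 ± 0.04 (47.2 ± 10.6 to 64.6 ± 7.08 CPM, adjusted p = 1.39e-16, higher at 12 of 12 times) and Cyp51 by 0.29 ± 0.06 (19.1 ± 4.89 to 23.1 ± 2.32 CPM, adjusted p = 1.21e-05). Insig1 fell by 0.48 (31.0 ± 5.92 to 22.2 ± 3.98 CPM, adjusted p = 3.78e-11, lower at 11 of 12 times), Sqle by 0.42 (1.37 ± 0.789 to 1.02 ± 0.431 CPM, adjusted p = 0.0108) and Lss by 0.35 (6.98 ± 1.99 to 5.41 ± 0.923 CPM, adjusted p = 1.86e-05). Fdft1 differed by 0.04 ± 0.06 and was not called. Enzyme genes were thus called in both directions, the falls being Sqle and Lss here but Fdft1 without the 10 libraries. Akap9, which overlaps Cyp51, rose by 0.13 in males (adjusted p = 0.0255; 0.09 and adjusted p = 0.305 without the 10 libraries) and fell by 0.25 in females (adjusted p = 9.49e-05). It was higher in vehicle females than vehicle males by 0.39 and its female minus male tamoxifen effect was -0.38, in both cases the direction of Cyp51; shared reads were not tested.

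Without the 10 vehicle male libraries the called changes in males were smaller, except that of Insig1: Hmgcs1 0.35, Idi1 0.34 and Insig1 -0.50 stayed called, while Cyp51 (0.09, adjusted p = 0.170), Lss (-0.10, adjusted p = 0.331) and Sqle (-0.09, adjusted p = 0.727) did not, and Fdft1 turned to -0.17 (adjusted p = 0.00300). With limma-voom the Sqle call was also lost without 1 vehicle male library at ct 26, 34 or 42, or 1 tamoxifen male library at ct 46 or 54 (-0.33 to -0.30, adjusted p 0.0503 to 0.0735). Scaling by library size alone moved the share of rises among called genes of the whole table from 55.38% to 42.83% in females and from 46.01% to 33.68% in males. Under that scaling the directions of the 9 member calls did not turn, Hmgcs1 in females was not called (0.08, adjusted p = 0.0930), and Fdft1 in males moved to -0.04.

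Vehicle females and vehicle males differed in 6 of 7 means, against 68.3% of all genes. Idi1 was higher in females by 0.71 ± 0.10 (4.91 ± 1.30 against 3.20 ± 1.58 CPM, adjusted p = 3.82e-09), Hmgcs1 by 0.37 ± 0.04 (60.4 ± 9.06 against 47.2 ± 10.6 CPM, adjusted p = 2.64e-12) and Cyp51 by 0.28 ± 0.06 (23.1 ± 3.09 against 19.1 ± 4.89 CPM, adjusted p = 1.89e-05). Female minus male differences were negative for Sqle at -0.39 ± 0.15 (adjusted p = 0.0209), Lss at -0.20 ± 0.07 (adjusted p = 0.0112) and Insig1 at -0.18 ± 0.06 (adjusted p = 0.00476). Without the 10 libraries the calls of Idi1 (0.53), Hmgcs1 (0.26) and Insig1 (-0.19) stayed and those of Cyp51 (0.10, adjusted p = 0.139), Sqle (-0.04, adjusted p = 0.865) and Lss (0.06, adjusted p = 0.537) did not; Fdft1 turned from 0.03 to -0.16 (adjusted p = 0.00420). Leaving out 1 vehicle male library at ct 26 or 1 at ct 42 ended the Lss call with limma-voom (-0.14 in both, adjusted p = 0.0796 and 0.0709).

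In tamoxifen hearts 0 of 7 means were called between the sexes by edgeR, where 7.68% of all genes were, and 1 of 7 had an unadjusted p under 0.05: Fdft1, at -0.16 ± 0.06 (46.4 ± 5.14 against 51.7 ± 5.71 CPM, adjusted p = 0.0574). DESeq2 called 0 of the 7. The largest difference in size was 0.24 ± 0.15 for Sqle; those of Hmgcs1 and Insig1 were 0.01 ± 0.04 and 0.01 ± 0.06. Without the 10 vehicle male libraries Fdft1 was called at -0.16 (adjusted p = 0.00309).

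The tamoxifen effect itself differed between females and males for 7 of 7 genes, against 52.3% of all genes (27.0% positive and 25.4% negative). As female minus male effects, the values were -0.36 ± 0.06 for Hmgcs1 (adjusted p = 1.00e-06), -0.61 ± 0.14 for Idi1 (adjusted p = 0.000210), -0.23 ± 0.08 for Cyp51 (adjusted p = 0.0152) and -0.19 ± 0.08 for Fdft1 (adjusted p = 0.0307). They were 0.63 ± 0.22 for Sqle (adjusted p = 0.0114), 0.28 ± 0.10 for Lss (adjusted p = 0.0179) and 0.19 ± 0.08 for Insig1 (adjusted p = 0.0451). All of these comparisons share the same vehicle and tamoxifen libraries. Without the 10 libraries Hmgcs1 (-0.24, adjusted p = 0.00169) and Idi1 (-0.42, adjusted p = 0.0239) stayed called; Sqle was at 0.29, Insig1 at 0.21, Cyp51 at -0.04, Lss at 0.02 and Fdft1 at 0.00418, none called. Over the 14 alternatives the calls of Hmgcs1 and Idi1 were kept, while that of Insig1 was lost in 11 (adjusted p up to 0.760), those of Sqle and Lss in 5 each and those of Fdft1 and Cyp51 in 4 each. The Insig1 call was lost, for example, without the mismatched ct 54 library (0.17, adjusted p = 0.0783), and that of Lss in 8 of 96 limma-voom fits without 1 library (0.20 to 0.24, adjusted p 0.0508 to 0.0945).

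**Figure D3:**
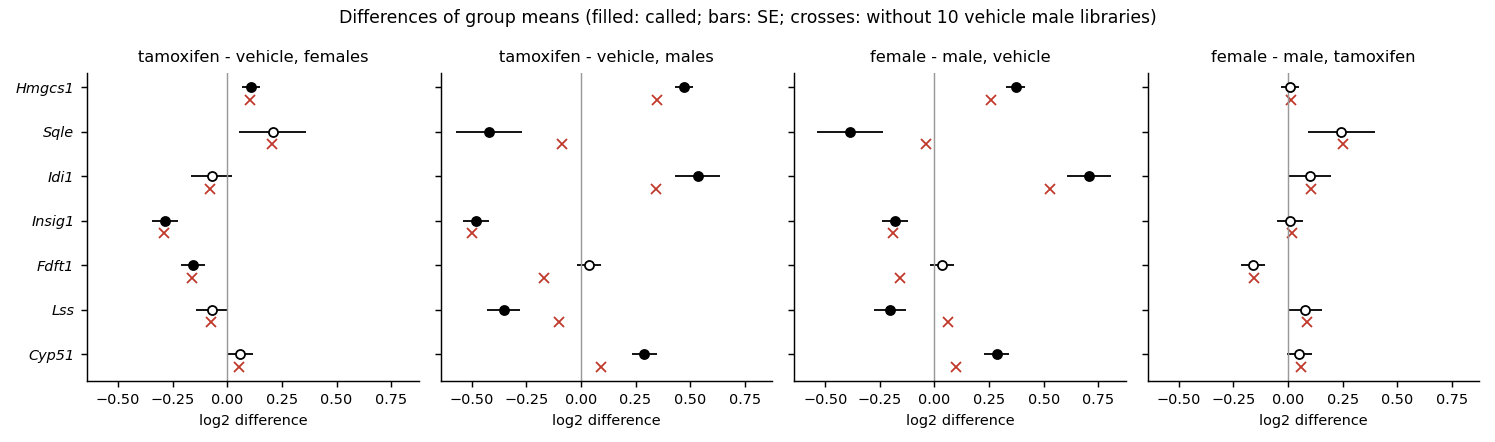
Log2 difference of the daily mean (horizontal axis) for each of the 7 genes (vertical axis) in 4 comparisons, tamoxifen minus vehicle in each sex and female minus male in each treatment. Circles are all 96 libraries with SE bars, filled where called, and crosses are the values without 10 vehicle male libraries; in males the crosses of Hmgcs1 and Idi1 are at 0.35 and 0.34, while those of Sqle and Lss are at -0.09 and -0.10.

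Markers of other cell types moved with the same comparisons. In males with tamoxifen 6 of 6 endothelial markers were called lower, as were 37.8% of all tested genes, with their summed level at 807 to 2130 CPM in vehicle males and 695 to 1127 CPM in tamoxifen males. In vehicle hearts 6 of 6 were lower in females, at 766 to 1173 CPM, as were 36.5% of all genes. With the 10 libraries left out these counts were 1 of 6 and 2 of 6, against 20.2% and 22.3% of all genes. Macrophage markers were lower with tamoxifen in females for 6 of 7, against 12.3% of all genes (170 to 309 CPM in vehicle and 110 to 254 CPM in tamoxifen females), and fibroblast markers higher for 5 of 6, against 15.2% (813 to 1409 CPM in vehicle and 815 to 1680 CPM in tamoxifen females). Of all the markers listed for these cell types, 0 were at 0 in every library. Of the adipocyte and hepatocyte markers, 0 of 5 and 0 of 4 had enough counts to be tested, with summed medians of at most 0.693 and 0.328 CPM in any group, although 1 tamoxifen female library reached 134.4 CPM for adipocytes. Their part in the changes of the 7 genes was not tested, and in whole ventricle fewer cells of a type cannot be told apart from less RNA per cell.

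Of the 9 tested genes for uptake and intracellular handling, 0 rose and 3 fell with tamoxifen in females, where 15.2% of all genes rose and 12.3% fell. Among these were Npc1, which exports cholesterol from lysosomes (-0.52 ± 0.07, adjusted p = 2.14e-08), and the HDL receptor gene Scarb1 (-0.19 ± 0.05, adjusted p = 0.00328). In males 2 rose and 3 fell, where 32.2% of all genes rose and 37.8% fell, with a list median of -0.05 (-0.11 in females). Among them were Npc2 (-0.33 ± 0.04), the sterol carrier gene Stard4 (-0.42 ± 0.07) and Vldlr (0.35 ± 0.06). Leaving out the 10 libraries put Stard4 at -0.19 (adjusted p = 0.0179) and Vldlr at 0.15 (adjusted p = 0.0543), with 0 rises and 3 falls in the list.

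Srebf2 itself had a called rhythm in all 4 groups, with amplitudes of 0.26 ± 0.03 and 0.26 ± 0.04 in vehicle females and males, 0.20 ± 0.03 and 0.20 ± 0.04 in tamoxifen females and males, and peaks from ct 0.404 to ct 3.17. With only the tamoxifen libraries of higher title number, neither tamoxifen rhythm was called (females 0.28, adjusted p = 0.346, and males 0.22, adjusted p = 0.0537). With those of lower number the female rhythm was called (0.19, adjusted p = 0.00356) and the male rhythm was not (0.20, adjusted p = 0.0932). Its lowest, median and highest CPM were 28.1, 37.3 and 51.5 in vehicle females and 27.7, 34.6 and 46.5 in tamoxifen females. In males they were 22, 30.7 and 44.6 with vehicle and 21.6, 31.3 and 38.9 with tamoxifen. Female medians lay above male medians in both treatments, with overlapping ranges. The female minus male difference was 0.31 ± 0.04 in vehicle hearts (adjusted p = 4.41e-12) and 0.16 ± 0.03 in tamoxifen hearts (adjusted p = 0.000863). The call in tamoxifen hearts was lost with the later cycle alone (0.12, adjusted p = 0.0954). It was also lost with only the tamoxifen libraries of higher title number (0.07, adjusted p = 0.714), but stayed with those of lower number (0.19, adjusted p = 0.0107). With tamoxifen Srebf2 rose by 0.08 in males (adjusted p = 0.0328), a call lost without the 10 libraries (0.05, adjusted p = 0.328), with library-size scaling (where its sign turned, -0.00466) and, with limma-voom, in 5 of 96 fits without 1 library. Its rhythm changed with tamoxifen in males (0.17 ± 0.05, adjusted p = 0.0227; 0.20 and adjusted p = 0.101 without the 10 libraries). This call was also lost with the later cycle alone (0.03, adjusted p = 0.950) and without libraries high in Myl7 (0.12, adjusted p = 0.177). An added harmonic ended it too (0.17, adjusted p = 0.0982), as did lower or higher tamoxifen title numbers alone (adjusted p = 0.0987 and 0.221). It stayed with the GC correction (0.21, adjusted p = 0.00304) and without a filter (0.20, adjusted p = 0.0297).

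Of the 8 genes of SREBP control, 7 rose and 0 fell with tamoxifen in males, 7 were higher in vehicle females than vehicle males, and in females 1 rose and 1 fell with tamoxifen. Of all tested genes 32.2% rose in males and 31.8% were higher in vehicle females. The female effect minus the male effect was called negative for 8 of 8, against 25.4% of all genes. When the 10 libraries were left out, 5 of 8 rose in males (3467 of 15745 tested genes did), 5 were higher in vehicle females (24.4%) and 3 had a negative interaction (15.1%). The list's median change in males was 0.25, against -0.05 over all tested genes. Insig2, the second INSIG protein, rose in males by 0.58 ± 0.07 (62.5 ± 20.5 to 91.6 ± 7.49 CPM, adjusted p = 4.60e-12), opposite to Insig1. Mbtps2, a protease that frees SREBPs, rose by 0.34 ± 0.04 and Rnf139, an ER ubiquitin ligase gene, by 0.41 ± 0.05. These 3 were at 0.28, 0.23 and 0.18 without the 10 libraries and stayed called. Scap rose in males by 0.14 ± 0.04 (adjusted p = 0.00118; 0.07 and adjusted p = 0.200 without the 10 libraries). In females Rnf139 rose by 0.15 ± 0.05 (adjusted p = 0.0246) and Srebf1, the gene of the fatty acid regulator SREBP-1, fell by 0.15 (adjusted p = 0.00749). The Rnf139 call was lost without a filter (adjusted p = 0.116) and without libraries high in Myl7 (0.0512). Lower or higher tamoxifen title numbers alone ended it too (adjusted p = 0.196 and 0.101). With the later cycle alone neither gene was called (0.16 and -0.09, adjusted p = 0.0895 and 0.377). Srebf1 was also not called with lower numbers alone (-0.10, adjusted p = 0.109). DESeq2 called both (adjusted p = 0.0327 and 0.00412).

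**Figure D4:**
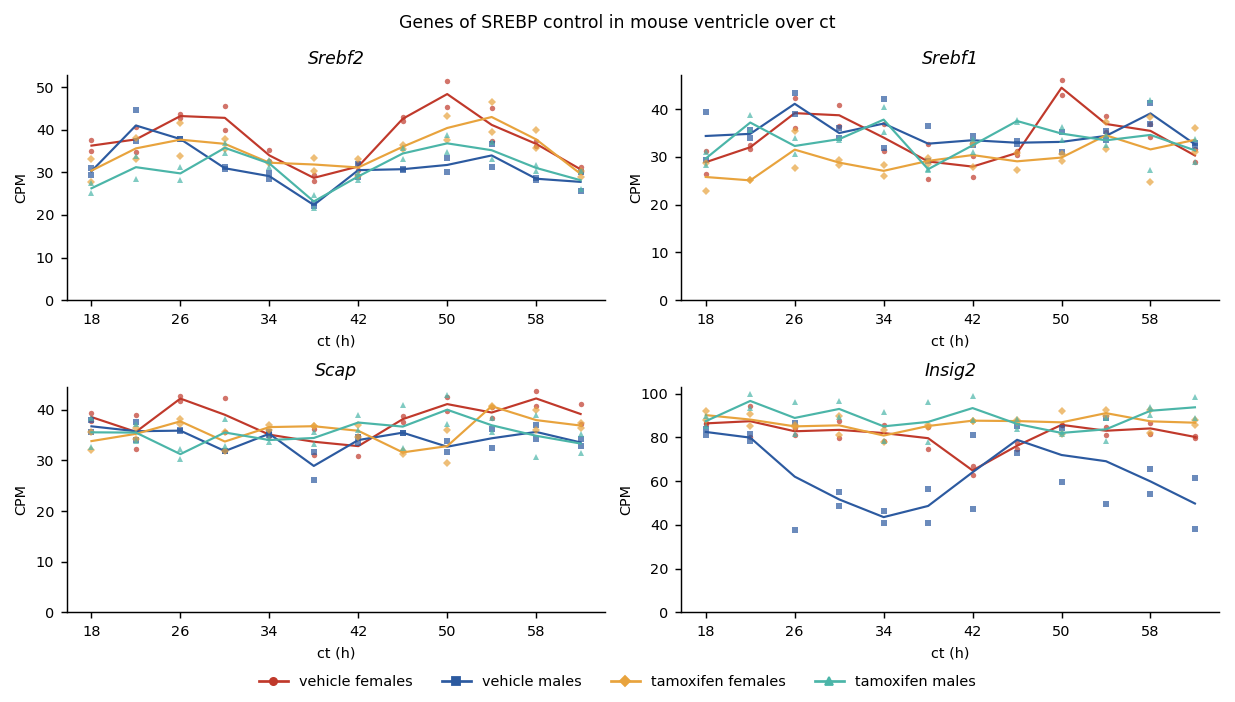
CPM (vertical axis) of Srebf2, Srebf1, Scap and Insig2 against ct in hours (horizontal axis), with points for single libraries, lines for the mean at each time and colours for the 4 groups. Srebf2 rises and falls over the day in all groups, and Insig2 in vehicle males reaches down to 37.5 CPM.

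Of the other sterol synthesis genes, 15 of 16 were tested (Fdps lay between 0 and 0.787 CPM). With tamoxifen 0 rose and 3 fell in females (15.2% and 12.3% of all genes): Hsd17b7 (-0.38 ± 0.11), Ebp (-0.19 ± 0.05) and Lbr (-0.11 ± 0.04), which encode late enzymes that reshape the sterol ring. Hsd17b7 and Lbr were not called with the later cycle alone (adjusted p = 0.335 and 0.216) or with higher tamoxifen title numbers alone (0.116 and 0.255). Hsd17b7 was also not called without libraries high in Myl7 (adjusted p = 0.107), nor Lbr with lower numbers alone (0.0763). Ebp stayed called in each of these settings. In males 7 rose and 6 fell, led by adjusted p by Ggps1 (0.29 ± 0.04), Lbr (-0.30 ± 0.04) and the phosphomevalonate kinase gene Pmvk (-0.39 ± 0.05), against 32.2% and 37.8% of all tested genes. The count was 4 rises and 3 falls without the 10 libraries, with Lbr at -0.11. In vehicle hearts 8 were higher and 3 lower in females, led by Sc5d (0.45 ± 0.05), Pmvk (-0.40 ± 0.05) and Ggps1 (0.28 ± 0.04), against 31.8% and 36.5% of all genes. Called without the 10 libraries were 4 higher and 1 lower, with Sc5d at 0.28. In tamoxifen hearts 0 of 15 were called between the sexes by edgeR, with 1 at an unadjusted p under 0.05. Rhythms were called for 7 of 15 in each vehicle sex, 5 in tamoxifen females and 3 in tamoxifen males, against 34.5%, 55.2%, 17.1% and 8.03% of all genes in vehicle females and males and tamoxifen females and males. Vehicle males had 4 of 15 called without the 10 libraries, against 18.6% of all genes. Msmo1, which removes methyl groups from the sterol ring, was called in vehicle females (0.27) and males (0.31) and in tamoxifen females (0.28) and males (0.17). The tamoxifen male call was lost without a filter (adjusted p = 0.0642), with an added harmonic (0.0965) and with the later cycle alone (0.661). Lower or higher tamoxifen title numbers alone ended it too (adjusted p = 0.385 and 0.277). The higher numbers alone also ended the tamoxifen female call (0.37, adjusted p = 0.202). Both vehicle calls stayed in each of these settings. The median effect of the list was -0.01 in females and -0.08 in males, beside 0.01 and -0.05 over all tested genes.

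The 7 genes varied together across libraries only in part. Over the 96 libraries, with log2 CPM centred within each group, the 15 pairs without Fdft1 had Pearson correlations from -0.02 to 0.78 (median 0.46), and the 6 pairs with Fdft1 from -0.35 to 0.28 (median 0.08). The highest was 0.78, between Hmgcs1 and Idi1, and the correlation of Srebf2 with Idi1 was 0.73 and with Sqle 0.67. Lss was also low with some genes, from -0.02 with Hmgcs1 and 0.04 with Cyp51 up to 0.48 with Sqle. Groups differed: Fdft1 with Cyp51 was at 0.69 in vehicle males. That pair was at -0.40 in vehicle females, -0.15 in tamoxifen females and -0.20 in tamoxifen males. Without the 10 vehicle male libraries the 15 pairs without Fdft1 ran from 0.23 to 0.72 (median 0.49). The 6 pairs with Fdft1 then ran from -0.32 to 0.04 (median -0.09). Lss was then at 0.23 with Hmgcs1 and 0.32 with Cyp51. Fdft1 with Cyp51 moved from 0.28 over all 96 libraries to -0.19. The points share time of day, depth and library, and the values are a description.

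**Figure D5:**
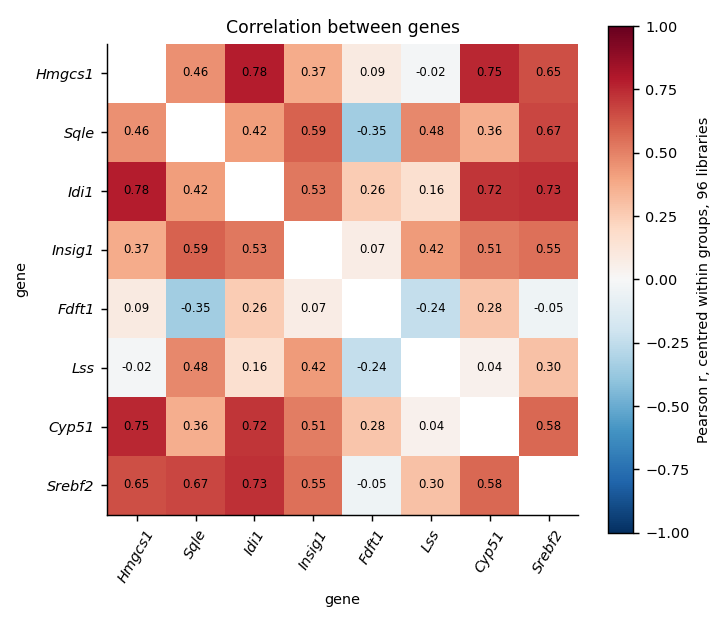
Pearson correlation (colour and printed value) between the 7 genes and Srebf2 over 96 libraries, with log2 CPM centred within each group; both axes list the genes. The row of Fdft1 has values from -0.35 to 0.28, and that of Lss from -0.24 with Fdft1 to 0.48 with Sqle.

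Ranked over 14090 genes by likeness to the mean of the 7 standardised profiles, over the same 96 libraries, the 10 most alike included Asb18 (r = 0.80), Nedd1 (0.79), Zfp518b (0.79), Hif1a (0.79), Tspyl5 (0.78), Prox1 (0.77), Sc5d (0.76), Srebf2 (0.76) and Epha4 (0.75), while the median gene had 0.0082. Sc5d and Srebf2 are also in the pathway lists. Among the 100 most alike, 1 of the other sterol synthesis genes appeared.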

How the data were processed

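Gene-level counts of mouse ventricle poly-A RNA were analysed in 96 libraries, grouped by the sex in each title and the labelled treatment. The authors deposited whole-number counts per gene, whose differing totals show no scaling; poly-A selection follows the labels' protocols. The submitters' processing notes name HISAT2, Picard and HTSeq and the builds GRCm38 and mm10, with no role or version, and the strand setting is not given in the sources used here. Gene coordinates and lengths come from the GENCODE annotation of GRCm38 and promoter sequences from RefSeq GRCm38.p6. All 96 columns matched 1 title.

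Library totals were 8944955 to 20596194, so low counts such as those of Sqle limit precision. Replicate pairs differed beyond sampling noise (chi-square per gene 3.86 to 99.6 over 48 pairs). CPM of single libraries are raw; group means are TMM-scaled, ± SD. Tests used edgeR 4.0.16 in R 4.3.3: filterByExpr (minimum count 10), TMM and 1 quasi-likelihood model of all libraries with a mean, cosine and sine of ct (24 h) per group, on 84 residual degrees of freedom, adjusted by Benjamini-Hochberg over 15629 genes, with calls at an adjusted p under 0.05. The script was tested on simulated data. Alternatives used DESeq2 1.42.0, limma-voom (limma 3.58.1), other scalings, filters, harmonics, a separate level per time, each cycle alone, a length and GC correction and left-out libraries. Without the filter, the dispersion trend came from edgeR's binned spline, because the usual estimate failed.

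Named genes are the 7 members, Arntl, the key genes Srebf2, Srebf1, Scap and Insig2, up to 3 called genes with the smallest adjusted p per other list and comparison, and the 10 genes most alike in profile; Ctsb, Akap9, Fdps and Msmo1 and, in the closing section, Abcg1, Abca1 and Pnpla3 were picked after their values were seen. The members and lists were chosen with earlier results of these data known. Some genes of these lists are counted in their totals but not reported here by name.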

Additional observations from a re-analysis of the deposited data

Results flagged for a closer look

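The effect of tamoxifen on the daily mean differed between females and males, by the interaction test in edgeR, for all 7 genes: as female minus male log2 effects, -0.36 for Hmgcs1, -0.61 for Idi1, -0.19 for Fdft1, 0.63 for Sqle, 0.28 for Lss, -0.23 for Cyp51 and 0.19 for Insig1. The test called 52.3% of all tested genes, and with the 10 TEC-rich vehicle male libraries left out Hmgcs1 and Idi1 stayed called. The calls of the other 5 were each lost in 4 or more of 14 alternatives, that of Insig1 in 11.

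The daily rhythm differed between vehicle females and vehicle males, by the test of the cosine and sine terms, for 4 genes: 0.22 for Hmgcs1, 0.69 for Sqle, 0.66 for Idi1 and 0.36 for Fdft1 (length of the vector between the rhythms, log2). Idi1 and Fdft1 stayed called without those 10 libraries.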

How the results depend on the processing

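Of the 47 calls of the 7 genes, 13 kept their direction and their call in all 14 alternative analyses and without each of the 12 times: the tamoxifen effects in males of Hmgcs1, Idi1 and Insig1, the vehicle sex differences and the interactions of Hmgcs1 and Idi1, and the rhythms of Hmgcs1 and Sqle in vehicle females, of Hmgcs1, Idi1 and Cyp51 in vehicle males and of Sqle in tamoxifen females. Each cycle alone keeps 6 of 12 times and each range of title numbers keeps fewer tamoxifen libraries; other causes were not tested. No paired analysis was possible because the titles carry a number unique to each library and groups share no replicate numbers. Depth limits Sqle, Idi1 and Lss most.

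Numbers of the 7 genes called changed by over 1.5 times as follows. At ct 18 to 38 alone, rhythms numbered 2 in vehicle females, 2 in tamoxifen females and 0 in tamoxifen males, rhythm changes in males 4 and rhythm differences between vehicle sexes 2. At ct 42 to 62 alone, rhythms numbered 3 in each vehicle sex, 2 in tamoxifen females and 0 in tamoxifen males, rhythm changes in males 0, rhythm differences between vehicle sexes 0, tamoxifen effects in females 0 and interactions 3. With a 12 h harmonic added, rhythms in tamoxifen males numbered 0 and rhythm changes in males 1, and with the length and GC correction the latter also numbered 1. Without a filter, vehicle sex differences numbered 3 and tamoxifen male rhythms 1; the latter was also 1 without libraries over 20 CPM of Myl7. Library-size scaling gave 1 sex difference in tamoxifen hearts. Without the 10 vehicle male libraries there were 1 sex difference in tamoxifen hearts, 2 interactions, 0 rhythm changes in males and 2 rhythm differences between vehicle sexes. With tamoxifen libraries numbered under 570, tamoxifen effects in females numbered 1, interactions 3, tamoxifen male rhythms 0 and rhythm changes in males 0; with those over 570 they numbered 1, 2, 0 and 0, and tamoxifen female rhythms 1. Smaller changes included interactions at 6 with DESeq2, with limma-voom and without libraries high in Myl7, and at 5 with the GC correction and without a filter, and tamoxifen effects in females at 2 with DESeq2, library-size scaling and no filter.

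Signs turned as follows. Fdft1 in males with tamoxifen was -0.0394 with library-size scaling, -0.0315 at ct 42 to 62 and -0.167 without the 10 libraries; its vehicle sex difference was -0.0269 at ct 42 to 62 and -0.159 without the 10, where its interaction was 0.00418. Lss turned to 0.0629 between vehicle sexes without the 10 and to 0.0221 in females over number 570. Idi1 in females turned to 0.0347 at ct 42 to 62. Between tamoxifen sexes, Hmgcs1 turned to -0.0194 with the GC correction, -0.0165 at ct 18 to 38, -0.00315 without libraries high in Myl7 and -0.0594 over 570. Insig1 turned to -0.0393 at ct 18 to 38, -0.0154 without the mismatched ct 54 library, -0.0157 without libraries high in Myl7, -0.0337 under 570 and -0.0350 over 570. Sqle turned to -0.0514 at ct 18 to 38 and Idi1 to -0.13 over 570. Srebf2 turned in males to -0.00305 at ct 18 to 38 and to -0.00466 with library-size scaling. None of these was a call beforehand except Lss between vehicle sexes, the Fdft1 interaction and Srebf2 in males.

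Leaving out each time in turn, the numbers called ran over 2 to 3 (tamoxifen, females), 5 to 6 (tamoxifen, males), 4 to 6 (sex, vehicle), 0 to 1 (sex, tamoxifen) and 4 to 7 (interaction) for means, 4 to 7, 5 to 7, 3 to 6 and 0 to 3 for rhythms (vehicle groups first, females before males in each treatment), 0 to 0 and 1 to 4 for rhythm changes in females and males, and 3 to 4 and 0 to 0 for rhythm differences between vehicle and tamoxifen sexes. Leaving out each library with limma-voom gave the same ranges except 5 to 7 for the interaction, 5 to 7 for vehicle females and 6 to 7 for vehicle males. Differences near 0 changed sign in these refits: Idi1 in females over times (-0.13 to 0.00010), and between tamoxifen sexes Hmgcs1 (-0.00420 to 0.0310 over times, -0.00342 to 0.0208 over libraries) and Insig1 (-0.0184 to 0.0493 and -0.0152 to 0.0265).

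Over all tested genes, the number called ranged over the alternatives from 2211 to 5358 (4299 as reported) for tamoxifen in females, 6652 to 12163 (10937) in males, 4499 to 8401 (8181) for the interaction, 395 to 1906 (1201) for sex in tamoxifen hearts, 1245 to 6836 (5396), 2932 to 9124 (8632), 54 to 3855 (2675) and 171 to 2015 (1255) for the rhythms in the order above, 3 to 654 (37) and 1 to 4832 (3237) for the rhythm changes in females and males, and 1287 to 6993 (5838) and 0 to 19 (6) for the rhythm differences between vehicle and tamoxifen sexes. Library-size scaling moved the share of higher calls between tamoxifen sexes from 53.12% to 66.78%.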

Other observations

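The efflux genes Abcg1 and Abca1, picked from a list of 9 after their values were seen, had called rhythms with fitted peaks between ct 13.34 and ct 15.62; no test compared peak times between genes. Abcg1, an exporter of cholesterol to HDL, had called rhythms in vehicle females (amplitude 0.40 ± 0.09, peak ct 14.39), vehicle males (0.45 ± 0.09, peak ct 13.34) and tamoxifen females (0.54 ± 0.09, peak ct 14.96). Abca1, which loads cholesterol on apolipoprotein A-I, was called in vehicle females (0.18 ± 0.06, peak ct 14.28, lost in 4 of 96 limma-voom fits without 1 library), vehicle males (0.18 ± 0.06, peak ct 14.79, not called without 1 library at ct 50 with limma-voom, nor without the 10 TEC-rich libraries, 0.23 and adjusted p = 0.0625) and tamoxifen females (0.23 ± 0.06, peak ct 15.62), and its mean fell with tamoxifen in females by 0.26 (adjusted p = 0.000143, edgeR). The tamoxifen female rhythm of Abca1 lost its call with the later cycle alone (0.28, adjusted p = 0.0673). Lower or higher tamoxifen title numbers alone ended it too (adjusted p = 0.0603 and 0.657). That of Abcg1 was lost with the higher numbers alone (0.55, adjusted p = 0.653). Of the 9 genes of efflux, storage and LXR, the sterol-sensing receptors, 1 rose and 3 fell with tamoxifen in females, where 15.2% of all genes rose and 12.3% fell, and 1 rose and 6 fell in males, where 32.2% rose and 37.8% fell. Without the 10 libraries 0 rose and 3 fell in males.

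Of the 13 genes of fatty acid synthesis, which SREBP-1 drives, 2 rose and 3 fell with tamoxifen in females and 4 rose and 3 fell in males, beside the same shares of all genes. Males had 3 rises and 1 fall without the 10 libraries. Pnpla3, a lipid droplet protein gene, rose by 1.90 ± 0.16 in females (adjusted p = 3.89e-17) and by 1.47 ± 0.17 in males (adjusted p = 3.66e-12). These genes share their libraries with the comparisons of the cholesterol genes.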
